A study of Mus musculus with 6 samples.

Results

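The 9 genes described here encode the subunits of the AMPA and kainate glutamate receptors of the mouse: the 4 AMPA receptor genes Gria1 to Gria4 and the 5 kainate receptor genes Grik1 to Grik5. They were chosen by name from the 25696 mouse gene symbols of the deposited tables by a rule that uses no measured value, though with earlier results of these data known, and each of the 9 is present in each table. The nuclei came from 50 µm scrolls of formalin-fixed, paraffin-embedded (FFPE) brain of C57BL/6J mice aged 8 to 12 weeks, which the labels of all 6 GEO samples call cortex. No genetic change or drug is named, and neither the animal nor its sex is given per well or nucleus. Paraffin had been removed by 1 of 3 treatments: mineral oil with heat, xylene with heat (heated xylene) or xylene at room temperature. Frozen nuclei stand beside the FFPE nuclei in the annotation tables of both bulk assays and of the plates; the labels describe no frozen preparation. Bulk wells were profiled by SCRB-seq (16 wells for each of the 3 treatments and 16 frozen, of which 8 held 10 nuclei and 8 held 100) and by SMART-Seq2 (1 well each of 10, 50 and 100 nuclei for each treatment and for frozen nuclei). Single nuclei were profiled on plates by SMART-Seq2 and in droplets.

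AMPA and kainate receptors are channels built of 4 subunits that open when glutamate binds. AMPA receptors carry most fast excitatory transmission in the brain. Kainate receptors act on both sides of the synapse, where Grik1 to Grik3 can form channels by themselves, while Grik4 and Grik5 need one of those partners to reach the surface. Gria2 makes AMPA receptors nearly impermeable to calcium once its Q/R codon, which lies in the loop lining the pore, has been edited in the RNA from glutamine to arginine, and Grik1 and Grik2 are edited in part at the same place. In the cerebellum, granule neurons are known for Grik2 and Grik5, and Bergmann glia, a specialised astrocyte, for Gria1 and Gria4.

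The genes resemble each other in sequence, so the coding stretch around the Q/R codon is shown for the 4 AMPA subunits and for the pair of kainate subunits that are edited there. Each line gives 51 bases of the reference coding strand, 5′ to 3′, spliced across exons, with the Q/R codon in capitals.
Gria1: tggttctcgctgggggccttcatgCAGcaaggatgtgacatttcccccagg
Gria2: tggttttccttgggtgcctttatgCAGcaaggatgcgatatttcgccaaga
Gria3: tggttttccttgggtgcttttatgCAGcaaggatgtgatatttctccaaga
Gria4: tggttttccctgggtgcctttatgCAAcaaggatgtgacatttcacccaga
Grik1: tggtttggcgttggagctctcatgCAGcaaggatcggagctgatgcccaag
Grik2: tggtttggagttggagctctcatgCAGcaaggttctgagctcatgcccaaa
The reference codon was CAG in 8 members and CAA in Gria4, both of which encode glutamine. In GRCm38 with the GENCODE M21 annotation, this codon lies at chr11:57243094-57243096 in exon 11 of Gria1 (plus strand), at chr3:80706911-80706913 in exon 11 of Gria2 (minus strand), at chrX:41610265-41610267 in exon 11 of Gria3 (plus strand) and at chr9:4464137-4464139 in exon 11 of Gria4 (minus strand). It lies at chr16:87940542-87940544 in exon 13 of Grik1 and at chr10:49244329-49244331 in exon 13 of Grik2 (both minus strand). Over these 51 bases, the 16 pairs of members within a family shared 28 to 48 identical positions, and the 20 pairs between families 32 to 36. Gria2 and Gria3 were the closest pair at 48. Elsewhere in the coding sequence, Gria3 and Gria4 shared an identical run of 50 bases, the longest of any pair. The sources used here do not say how reads that fit more than 1 member were counted. The tables hold counts per gene, so editing itself could not be measured.

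The genes are long. Over the annotation they span from 62.5 kb for Grik5 (chr7:25009849-25072346, minus strand) to 694 kb for Grik2 (chr10:49094833-49788766, minus strand), with 5.17 to 15.5 kb of exon sequence. Gria1 spans chr11:57011387-57330244, Gria2 chr3:80681450-80802835, Gria3 chrX:41400854-41678601, Gria4 chr9:4417896-4796234 and Grik1 chr16:87895900-88290265.

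Mouse counts per well ran from 7512 to 167144 in SCRB-seq and from 270363 to 942966 in SMART-Seq2. The lowest SCRB-seq totals were in mineral oil wells of 10 nuclei, which summed to 115185 counts over 8 wells, and each treatment and nuclei number was 1 library pool, so pool and treatment cannot be told apart. Wells are not stated to come from separate animals, so p-values measure only the spread between wells, which may be technical. Levels are given as CPM, the counts of a gene scaled to the same mouse total in every well. In the bulk wells, fewer cells of a type and less RNA per cell cannot be told apart. Markers of other cell types also differed between FFPE and frozen wells. The 7 measured granule neuron markers summed to 399 to 7055 CPM per FFPE SCRB-seq well (median 2536) against 56.8 to 605 (median 386) in frozen wells, where Gabra6 and Cbln3 were at 0 in all wells. The 7 cortical excitatory markers summed to 95.8 to 1312 CPM (median 482) in FFPE wells against 1487 to 2698 (median 2200) in frozen wells. In SMART-Seq2 the granule list summed to 2689 to 8533 CPM in FFPE wells against 381 to 673 in frozen wells (Gabra6, Cbln3 and Cbln1 at 0), and the cortical excitatory list to 142 to 568 against 1483 to 2229. Lists of glial markers were also higher in FFPE wells: in SMART-Seq2 the oligodendrocyte list summed to 745 to 2819 CPM against 67.3 to 360 in frozen wells, the astrocyte list to a median of 2260 against 644, and the Bergmann glia list to a median of 394 against 37.0 (Gdf10, Hopx and Fabp7 at 0 in frozen wells). The same medians in SCRB-seq were 1299 against 397 CPM for oligodendrocytes, 1606 against 627 for astrocytes and 497 against 146 for Bergmann glia. The mineral oil wells alone had an oligodendrocyte median of 233 CPM, below that of frozen wells. The 4 measured markers of the Purkinje neuron list lay the other way, at 5.85 to 280 CPM in FFPE against 549 to 703 in frozen SMART-Seq2 wells (Ppp1r17 at 0 in frozen wells). In SCRB-seq their medians were 73.1 and 644 CPM. The 9 inhibitory neuron markers had a higher median sum in FFPE wells, at 807 against 352 CPM in SCRB-seq and 1148 against 356 in SMART-Seq2, and the 6 spiny neuron markers a lower one, at 448 against 1252 and 1400 against 2328 CPM. The SCRB-seq mineral oil wells alone had an inhibitory median of 326 CPM, below that of frozen wells. The part of these markers in the differences between FFPE and frozen material below was not tested.

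Between FFPE and frozen wells, 3 AMPA subunits and Grik5 were lower in FFPE SCRB-seq wells, while Grik1 and Grik2 were higher and Gria4 did not differ beyond the spread. Of the 9 members, 7 passed the filter on low counts and 6 of these were called at an adjusted p under 0.05 in edgeR's quasi-likelihood fit, with p-values adjusted after Benjamini and Hochberg over 1478 genes. In this contrast 58% of all tested genes were called, 30.2% higher and 27.7% lower, so most genes of the table moved and the members' count says little by itself. The contrast sets the mean of the 3 FFPE treatments against frozen. Scaling moved its centre: with DESeq2's size factors the median log2 fold change of all tested genes shifted from 0.00 to -0.58, and the split went from 447 higher and 410 lower to 309 higher and 674 lower. Relative to that median, the order of the members was kept.

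Gria3, an AMPA subunit whose gene is X-linked, had the largest fall among the members tested in SCRB-seq. It ran from 0 to 808 CPM over the 48 FFPE SCRB-seq wells (median 104) and from 133 to 1192 CPM over the 16 frozen wells (median 447). Means were 143 ± 147 and 493 ± 258 CPM (SD), and 46 of 48 FFPE wells lay under the frozen mean, although the ranges overlapped. Gria3 thus had a log2 fold change of -1.89 (SE 0.28, edgeR adjusted p = 2.31e-08). In SMART-Seq2, Gria3 ran from 0 to 922 CPM over 9 FFPE wells and had 986, 740 and 812 CPM in the frozen wells of 10, 50 and 100 nuclei. There 8 of 9 FFPE wells were under the frozen mean, the exception being the heated xylene well of 10 nuclei at 922 CPM. The log2 fold change was -2.33 (SE 0.58, edgeR adjusted p = 0.0206). This call was lost when any 1 frozen well was left out, with log2 fold changes of -2.12, -2.36 and -2.22 and edgeR adjusted p of 0.145, 0.0589 and 0.0776 without the frozen well of 10, 50 and 100 nuclei.

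Gria2, the subunit that sets calcium permeability, ran from 0 to 1605 CPM over the FFPE SCRB-seq wells (median 275) and from 345 to 1231 over the frozen wells (median 852). Its mean was 334 ± 324 CPM (SD, n = 48) against 817 ± 226 (n = 16), with 46 of 48 FFPE wells under the frozen mean. This gave a log2 fold change of -1.47 (SE 0.31, edgeR adjusted p = 4.03e-05). In SMART-Seq2 the 3 frozen wells had 706 to 906 CPM and the 9 FFPE wells 260 to 852, and the fold change of -0.83 (SE 0.37) was not called (edgeR adjusted p = 0.290).

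Gria1, abundant in forebrain pyramidal neurons, ran from 0 to 1421 CPM in FFPE SCRB-seq wells (median 369) and from 159 to 1229 in frozen wells (median 770). Means were 399 ± 342 and 706 ± 297 CPM (SD, n = 48 and 16), with 41 of 48 FFPE wells under the frozen mean. The log2 fold change was -1.01 (SE 0.28, edgeR adjusted p = 0.00154). In SMART-Seq2 its FFPE wells spread from 8.12 CPM in the room-temperature xylene well of 10 nuclei to 1048 CPM in the heated xylene well of 10 nuclei, around the frozen wells at 578, 939 and 1176. That fold change of -1.18 (SE 0.60) was not called (edgeR adjusted p = 0.378).

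Gria4, known in cerebellar neurons and glia as well as in cortical interneurons, was the AMPA subunit without a fall. SCRB-seq wells had 133 to 3930 CPM in FFPE (median 791) and 511 to 1509 in frozen material (median 858), with means of 839 ± 631 and 866 ± 253 CPM (SD, n = 48 and 16). The log2 fold change was -0.13 (SE 0.22, edgeR adjusted p = 0.648). With DESeq2's size factors, Gria4 was called lower at -0.75 (edgeR adjusted p = 0.00195), close to the shift of -0.58 in all genes. In SMART-Seq2 the 9 FFPE wells ran from 933 to 2780 CPM and the 3 frozen wells from 792 to 857. These groups did not overlap, and the fold change of 0.87 (SE 0.32) was not called (edgeR adjusted p = 0.158).

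**Figure D1:**
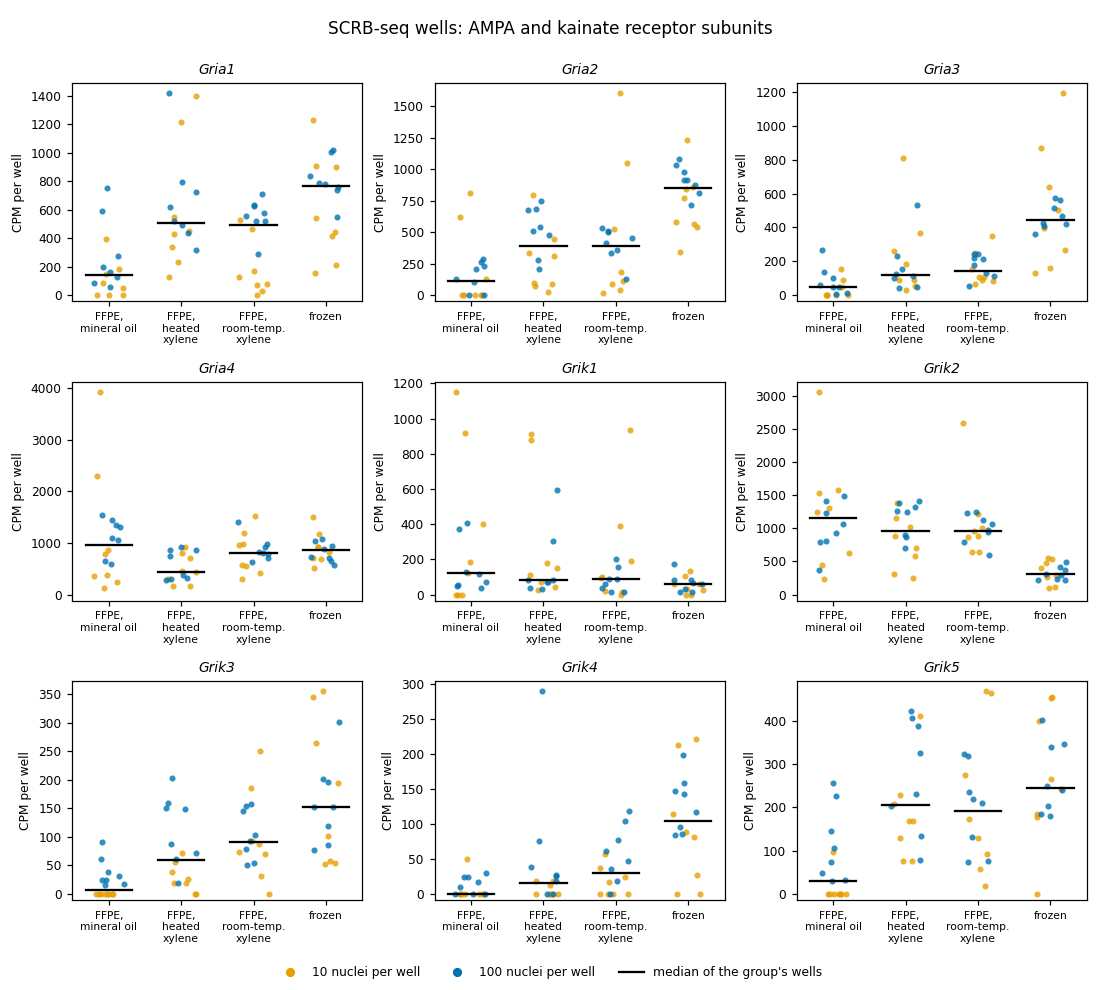
Library-scaled mouse counts (CPM, linear axes that differ between panels) of each of the 9 subunits in each SCRB-seq well, with 16 wells per group; orange points are wells of 10 nuclei, blue points wells of 100, and black lines group medians. Grik2 medians lie at 959 to 1151 CPM in the 3 FFPE groups against 304 in frozen wells, and Gria2 and Gria3 medians are highest in frozen wells.

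Grik2, the kainate subunit known from granule neurons, was higher in FFPE wells in both assays. SCRB-seq wells ran from 229 to 3062 CPM in FFPE (median 985) and from 106 to 555 in frozen material (median 304). Means were 1049 ± 511 and 334 ± 139 CPM (SD, n = 48 and 16), and 45 of 48 FFPE wells lay above the frozen mean. Grik2 rose by 1.62 on the log2 scale (SE 0.24, edgeR adjusted p = 1.17e-08). In SMART-Seq2, the mineral oil wells of 10, 50 and 100 nuclei had 1955, 1708 and 1949 CPM of Grik2, the heated xylene wells 1282, 2386 and 1739, and the room-temperature xylene wells 1584, 1803 and 1539. The frozen wells of the same numbers had 177, 533 and 377 CPM. All 9 FFPE wells were above all 3 frozen wells, and the log2 fold change was 2.07 (SE 0.36, edgeR adjusted p = 0.000763). Grik2 was the member called in both assays under each alternative run, with adjusted p from 1.15e-09 to 0.00075 in SCRB-seq and from 1.16e-06 to 0.00651 in SMART-Seq2.

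Grik1, a kainate subunit found in many interneurons, was higher in FFPE SCRB-seq wells. Its median was 90.8 CPM in FFPE wells (0 to 1150) against 59.5 in frozen wells (0 to 172), and its mean 210 ± 289 against 59.1 ± 48.1 CPM (SD, n = 48 and 16). The log2 fold change was 1.58 (SE 0.50, edgeR adjusted p = 0.00501), with 32 of 48 wells above the frozen mean. It was not called in wells of 100 nuclei alone (0.75, edgeR adjusted p = 0.237) or with DESeq2's size factors (0.99, 0.0701), and over all alternatives the adjusted p ran from 0.00754 to 0.237. In SMART-Seq2, 3 of 9 FFPE wells had 0 counts of Grik1, the highest had 147 CPM, and the frozen wells had 24.7, 170 and 38.6. That fold change of -2.06 (SE 1.23) points the other way and was not called (edgeR adjusted p = 0.482).

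Grik5, an obligate partner subunit, ran from 0 to 468 CPM in FFPE SCRB-seq wells (median 133) and from 0 to 454 in frozen wells (median 246). Its mean was 165 ± 137 against 270 ± 122 CPM (SD, n = 48 and 16), and 38 of 48 FFPE wells were under the frozen mean. The log2 fold change of -0.79 (SE 0.29, edgeR adjusted p = 0.0171) was no longer called without the 8 mineral oil wells of 10 nuclei (-0.58, edgeR adjusted p = 0.0729), in wells of 100 nuclei alone (0.103) or without the filter on low counts (0.12), and adjusted p ranged from 7.28e-06 to 0.12. Grik3 and Grik4 did not pass the filter in SCRB-seq. Grik3 averaged 63.8 CPM over FFPE wells against 169 over frozen wells, and Grik4 26.6 against 111, with 45 and 46 of 48 FFPE wells under the frozen means. Both were called lower when no filter was applied, as were 3297 of 19006 genes. In SMART-Seq2, Grik4 had 129, 184 and 233 CPM in the frozen wells and 0 to 125 in the FFPE wells. Those groups did not overlap, but the fold change of -2.79 (SE 1.09) was not called (edgeR adjusted p = 0.187), except with the number of nuclei as covariate (-5.03, 0.0342). Grik3 had a fold change of -2.19 (SE 0.85, edgeR adjusted p = 0.183) and Grik5 of -0.84 (SE 0.76, 0.706).

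In SMART-Seq2, then, all 9 members were tested and 2 were called, against 4.09% of 9092 genes (1.45% higher, 2.64% lower). For Gria4, Grik2 and Grik4, FFPE and frozen wells did not overlap. The share of all 9092 genes that separated so was not counted, so this says little by itself. The median log2 fold change over the 9 was -1.18, against -0.13 over all genes tested, and for the 7 tested in SCRB-seq it was -0.79 against 0.00. Both assays gave Grik2 higher and Gria3 lower in FFPE wells. Whether the assays differed for Grik1 or Gria4 was not tested.

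**Figure D2:**
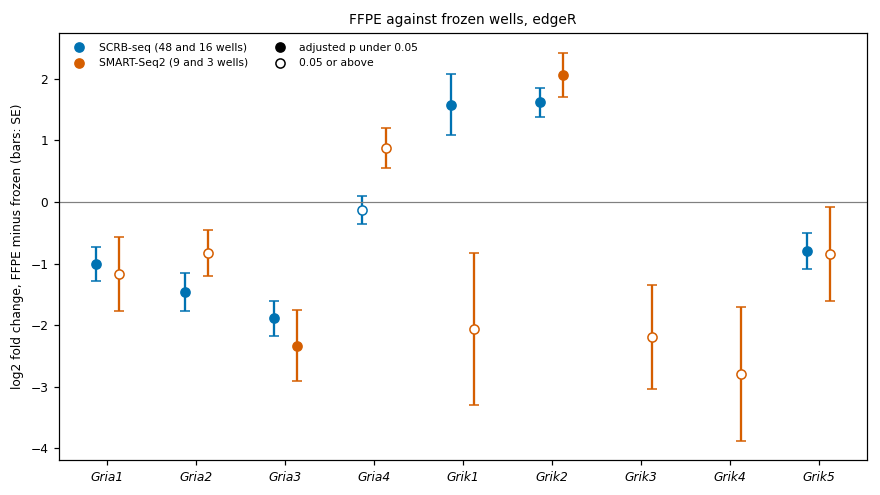
Log2 fold change of each subunit, mean of the 3 FFPE treatments minus frozen, with bars of 1 SE, from edgeR in SCRB-seq (blue, 48 FFPE and 16 frozen wells) and SMART-Seq2 (orange, 9 and 3 wells); filled points had an adjusted p under 0.05. Grik2 is up in both assays (1.62 and 2.07), Gria3 down in both (-1.89 and -2.33), and Grik3 and Grik4 have no SCRB-seq point because they did not pass the filter.

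The make-up of each family differed between FFPE and frozen wells. Gria4 made up 54.1% of all AMPA subunit counts in the FFPE SMART-Seq2 wells (26.5% to 85.3% per well) and 24.9% in the frozen wells (23.1% to 25.9%). Gria3 made up 10.6% in FFPE and 27.5% in frozen wells. Among kainate subunits, Grik2 made up 89.4% of counts in FFPE wells (83.8% to 98.5% per well) and 39.6% in frozen wells (32.2% to 47.3%), and these ranges did not overlap. Grik4 made up 23.8% in frozen and 1.63% in FFPE wells, and Grik3 17.0% and 3.51%. In SCRB-seq the share of Grik2 was 69.1% in FFPE and 33.4% in frozen wells, with overlapping ranges. These shares are of counts, which longer transcripts raise, and are compared between groups only; they were not tested.

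**Figure D3:**
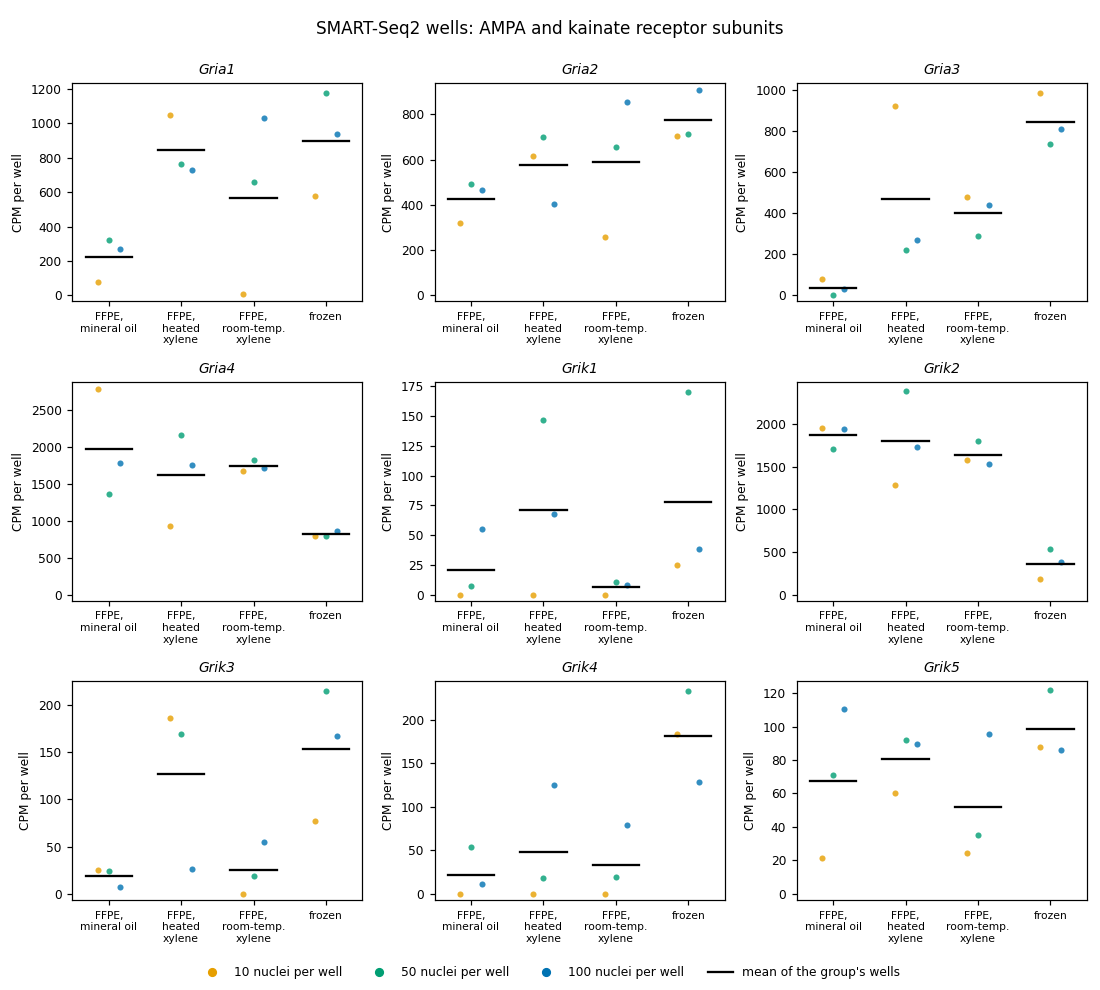
CPM of each subunit in each of the 12 SMART-Seq2 wells (linear axes that differ between panels), with 1 well each of 10 (orange), 50 (green) and 100 (blue) nuclei per group and black lines at the group mean. The 9 FFPE wells of Grik2 lie at 1282 to 2386 CPM and the 3 frozen wells at 177 to 533.

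Levels of different genes in the SMART-Seq2 wells were also set side by side per length. Mean CPM per kb of exon in frozen SMART-Seq2 wells were 149 for Gria1, 129 for Gria4, 85.8 for Gria3 and 49.9 for Gria2, all above the kainate subunits at 11.6 (Grik1) to 30.5 (Grik4). In FFPE wells, Gria4 at 282 and Grik2 at 134 CPM per kb of exon led, ahead of Gria1 at 90.2. Per kb of gene, introns included, Gria2 led in frozen wells at 6.39 CPM per kb, and Gria4 at 4.69 and Gria2 at 4.36 led in FFPE wells. On either measure of length, Grik2 ranked 6 or 7 of the 9 in frozen wells and ranked 2 or 3 in FFPE wells. The sources used here do not split reads between exons and introns, so both measures are given.

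Among FFPE wells, the treatments were compared to ask how the removal of paraffin bears on the RNA recovered. In SCRB-seq, mineral oil wells had less Gria1 and Grik5 and more Gria4 than heated xylene wells: 3 of the 6 members tested were called, against 8.52% of 1080 genes (1.57% higher, 6.94% lower). Gria1 ran from 0 to 752 CPM in 16 mineral oil wells (median 142) and from 131 to 1421 in 16 heated xylene wells (median 508), with 15 of 16 mineral oil wells under the other mean. The means were 196 ± 216 and 630 ± 395 CPM (SD), and the log2 fold change was -1.66 (SE 0.43, edgeR adjusted p = 0.00700). Gria4 ran from 133 to 3930 CPM in mineral oil (median 965) and from 169 to 927 in heated xylene (median 440). Mean levels were 1128 ± 936 and 542 ± 282 CPM (SD), the log2 fold change was 1.00 (SE 0.30, edgeR adjusted p = 0.0267), and 12 of 16 mineral oil wells were above the heated xylene mean. Grik5 had 0 counts in 7 of 16 mineral oil wells and at most 256 CPM there, against 74.7 to 423 CPM in heated xylene, with means of 63.3 ± 83.3 and 228 ± 125 CPM (SD). Its log2 fold change was -1.50 (SE 0.43, edgeR adjusted p = 0.0171). All 3 pairs of groups overlapped.

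The Gria1 and Grik5 calls were lost without the 8 shallow mineral oil wells of 10 nuclei. Gria1 was then at -1.22 (edgeR adjusted p = 0.0988, with all alternatives between 0.00119 and 0.0988), though it was called in wells of 100 nuclei alone. Grik5 was then at -1.01 (edgeR adjusted p = 0.177, range 0.00704 to 0.177), and its call was also lost in wells of 100 nuclei alone (-1.21, 0.0651). Gria4 stayed called without the mineral oil wells of 10 nuclei (1.01). It was not called without the filter on low counts (0.76, edgeR adjusted p = 0.133) or in wells of 10 nuclei alone (0.98, 0.208), and its lowest adjusted p was 0.0169. In the mineral oil wells of 10 nuclei, Grik3 had 0 of 115185 counts, which allows up to 26.0 CPM (3 counts of the total, called the limit of 3 counts below), and Grik4 and Grik5 had 1 and 2 counts. Gria2 was at -1.28 (edgeR adjusted p = 0.104, range 0.00694 to 0.720) and was called without the filter (-1.47, 0.0235) and in wells of 100 nuclei alone (-1.65, 0.00694). Grik1 (-0.06) and Grik2 (0.14) lay close to 0 with SEs of 0.60 and 0.26. Gria3 and Grik3 did not pass the filter, and 15 of 16 mineral oil wells lay below the mean of heated xylene for each (Gria3 61.4 against 203 CPM, Grik3 18.8 against 70.8). Tested without the filter, where 3415 of 18205 genes were called, both were called (Gria3 -1.67, edgeR adjusted p = 0.00854, and Grik3 -1.56, 0.0405). Gria3 was not called in wells of 100 nuclei alone (-0.93, edgeR adjusted p = 0.281) or without the mineral oil wells of 10 nuclei (-1.25, 0.13). Markers moved with this contrast too: the 9 inhibitory neuron markers summed to 0 to 2619 CPM per mineral oil well (median 326, with Gad2, Slc32a1, Sst, Vip and Npy at 0 in every well) against 345 to 2101 (median 1191) in heated xylene. The 7 oligodendrocyte markers summed to 0 to 1803 CPM (median 233, Mag at 0) against 829 to 5478 (median 2270). Their part was not tested.

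Against room-temperature xylene, mineral oil wells had less Grik5, the 1 member called of 6, where 10.3% of genes were called (2.5% higher, 7.78% lower). Grik5 averaged 204 ± 138 CPM (SD, n = 16) in room-temperature xylene, and its log2 fold change was -1.38 (SE 0.43, edgeR adjusted p = 0.0298), with 14 of 16 mineral oil wells under the other mean. It was not called without the mineral oil wells of 10 nuclei (-0.90, edgeR adjusted p = 0.241) or in wells of 100 nuclei alone (-0.68, 0.357), and its lowest adjusted p was 0.0126. Here too the oligodendrocyte markers had a median sum of 233 CPM in mineral oil wells against 2142 (488 to 13904) in room-temperature xylene, and the inhibitory neuron markers 326 against 841 (334 to 1720), and their part was not tested. Gria2 was at -1.40 (SE 0.51, edgeR adjusted p = 0.0666, range 0.0145 to 0.307), and it was called without the filter (0.0145), with the number of nuclei as covariate (0.0436) and by DESeq2's Wald test (-1.49, DESeq2 adjusted p = 0.0305). Without the filter, Grik3 (-2.07, edgeR adjusted p = 0.00628, 16 of 16 mineral oil wells under the other mean of 102 CPM) and Gria3 (-1.43, 0.0332, 15 of 16 under 164 CPM) were called too, among 2925 of 18205 genes. Gria3 was again not called in wells of 100 nuclei alone (-0.93, edgeR adjusted p = 0.293) or without the mineral oil wells of 10 nuclei (-0.996, 0.246). Between heated and room-temperature xylene, 0 of 6 members were called by edgeR, as were 1.94% of genes, and 0 were called by DESeq2's Wald test. Gria1 (0.79, SE 0.40, edgeR adjusted p = 0.317) and Gria4 (-0.66, SE 0.30, 0.252) came nearest, and of the 6 members Gria4 had an unadjusted p of 0.0310. These contrasts share the same FFPE wells and are not independent of each other.

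In the SMART-Seq2 wells, 0% of 8372 genes were called in each of the 3 pairs of treatments by edgeR (314, 199 and 379 genes had an unadjusted p under 0.05), and so 0 of 9 members. DESeq2's Wald test called 20, 1 and 26 genes and no member. Gria3 stood lowest in mineral oil, with 81.9, 0 and 33.7 CPM in the wells of 10, 50 and 100 nuclei, against 922, 221 and 272 CPM in heated xylene and 479, 291 and 440 in room-temperature xylene. The groups did not overlap, and the log2 fold changes of -3.63 (SE 0.98, edgeR adjusted p = 0.671) and -3.26 (SE 0.96, 0.734) were not called, except without the filter on low counts (0.00954 and 0.0485). With 3 wells a group such separation can arise by chance, and its share over all 8372 genes was not counted. Gria1 had 76.1, 322 and 268 CPM in mineral oil against 1048, 761 and 730 in heated xylene, also without overlap and without a call (-2.01, SE 0.84, edgeR adjusted p = 0.9997). Grik3 did not overlap either, at 25.4, 23.7 and 6.73 CPM against 187, 170 and 25.9 (-2.81, SE 1.60, edgeR adjusted p = 0.9997). Grik2 was called in none of the 3 pairs, with means of 1871 ± 141, 1802 ± 555 and 1642 ± 141 CPM (SD, n = 3 each).

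Genes that work with these receptors were taken from 5 lists of 38 genes: AMPA auxiliary subunits, AMPA assembly and trafficking factors, extracellular organisers, kainate auxiliary proteins and RNA editing enzymes. In FFPE against frozen SCRB-seq wells, 11 passed the filter, of which 4 were called higher and 6 lower (over all genes, 30.2% higher and 27.7% lower), with a median log2 fold change of -0.73 against 0.00 for all genes. Among AMPA auxiliary subunits 2 of 14 were tested: Cacng7, which modulates the gating of the channel, rose by 2.64 on the log2 scale (edgeR adjusted p = 4.40e-07), from a mean of 47.0 CPM in frozen to 295 in FFPE wells. Shisa9, which slows recovery from desensitisation, fell by 2.67 (edgeR adjusted p = 4.37e-07), from 275 to 50.6 CPM. Among assembly and trafficking factors, 6 of 11 were tested, with 1 higher and 4 lower. Porcn, an acyltransferase found in AMPA receptor complexes, rose by 1.71 (edgeR adjusted p = 0.00137), and Abhd6, a hydrolase that limits receptor delivery, fell by 1.70 (7.18e-07). The scaffolds Grip1 (-0.87, edgeR adjusted p = 0.0308) and Dlg1 (-0.86, 0.0222) and the ATPase Nsf (-0.73, 0.0335) were called lower, and all 3 lost the call in wells of 100 nuclei alone (0.282, 0.141 and 0.380).

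The olfactomedins, secreted proteins that bind AMPA receptor complexes, went opposite ways. Olfm3 rose by 2.60 in SCRB-seq (edgeR adjusted p = 7.26e-07), from 61.9 to 405 CPM, and by 3.47 in SMART-Seq2 (8.14e-05), from 81.2 to 1085 CPM, with 9 of 9 FFPE wells above the frozen mean. Olfm1 fell by 1.33 in SCRB-seq (edgeR adjusted p = 0.000110), from 660 to 280 CPM. Adarb2, an RNA-binding relative of the editing enzymes that is not known to edit by itself, rose by 1.42 in SCRB-seq (edgeR adjusted p = 0.000241, not called in wells of 10 nuclei alone at 0.153) and by 3.18 in SMART-Seq2 (0.0103). In SMART-Seq2, 34 of the 38 were tested, 2 were higher and 2 lower (over all genes, 1.45% and 2.64%), with a median of -0.71 against -0.13 for all genes. Those lower were Cacng3, an auxiliary subunit of forebrain receptors, which fell by 4.39 (edgeR adjusted p = 0.00122) from 599 to 43.2 CPM, and Cnih3, a cornichon protein that aids export, which fell by 4.78 (0.00942) from 172 to 16.1 CPM. Cnih3 lost its call without the frozen well of 50 or of 10 nuclei (edgeR adjusted p = 0.0655 and 0.0675). None of the kainate auxiliary genes passed the filter in SCRB-seq, and of the 2 of 4 tested in SMART-Seq2 by edgeR none was called, with a median of -0.80.

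Between treatments in SCRB-seq, 8 of the 38 genes were tested in each pair. Adarb2 was lower in mineral oil than in heated xylene (-2.35, SE 0.42, edgeR adjusted p = 9.81e-05, mean 103 against 635 CPM) and than in room-temperature xylene (-2.02, SE 0.42, 0.000798, 493 CPM), with 16 of 16 mineral oil wells under both means. Porcn was higher in mineral oil than in room-temperature xylene (1.48, SE 0.50, edgeR adjusted p = 0.0412), though in 9 of 16 wells and not with DESeq2's size factors (0.0835). Frrs1l, which helps assemble AMPA receptors, was lower in heated than in room-temperature xylene (-2.21, SE 0.56, edgeR adjusted p = 0.0177), but not in wells of 100 nuclei alone (-0.91, 0.311). No other gene of the lists was called in these 3 pairs, and 0 of 30 in the SMART-Seq2 pairs by edgeR.

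On plates, the whole-series table held 143 FFPE nuclei (median 47887 mouse counts) and 137 frozen nuclei (median 255329), and a separate FFPE batch 1 held 98 nuclei (median 180584). The table of batch 3 held 0 nuclei. FFPE and frozen nuclei were on different plates and carry different marks (L and R) under the annotation's heading for the brain, so preparation, plate and that mark cannot be told apart. Nuclei are not replicates, so no test was made. The exact binomial intervals treat nuclei as independent draws and cover no difference between plates or preparations. SMART-Seq2 reads carry no molecular identifiers, and levels on plates are given without intervals. Of the 143 FFPE nuclei, 134 are those of batch 2 with identical counts. The other 9 hold 102136 to 4973791 counts each, and 7 nuclei of the table exceed the highest batch 2 total of 431562. They weigh on pooled levels: a single nucleus held 76.7% of the Grik5 counts of all FFPE nuclei, and a single nucleus 80.9% of those of Grik1.

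A larger share of frozen than of FFPE nuclei had counts of 8 of the 9 members as deposited, and of 7 after thinning to equal depth. A median of 7 members was detected per frozen nucleus, against 4 per FFPE nucleus of the whole-series table and 3 in batch 1, and 23 frozen but 5 FFPE nuclei had all 9. Gria1 had a count in 83.9% of frozen nuclei (115 of 137, exact binomial 95% interval 76.7% to 89.6%) and in 39.9% of FFPE nuclei (57 of 143, 31.8% to 48.4%). Gria3 was found in 81.0% of frozen and 30.1% of FFPE nuclei, and Grik4 in 65.7% and 19.6%. Thinned to 10000 counts per nucleus, which left 127 frozen and 135 FFPE nuclei, Gria1 stood at 71.7% and 26.7%, Gria3 at 59.1% and 11.9%, and Grik4 at 37.0% and 9.63%. Thinning is a random draw, so these shares move between draws. Drawn by plate, Grik4 was in 6.25% and 5.63% of nuclei on the FFPE plates. Grik1, the rarest, stood at 7.87% and 4.44% after thinning, with overlapping intervals. Gria4 and Grik2 did not follow this over all FFPE nuclei. Gria4 was found in 78.8% of frozen and 78.3% of FFPE nuclei (thinned, 52.8% and 54.8%), and Grik2 in 78.8% and 86.0% (thinned, 52.0% and 68.9%). Both thinned intervals of Gria4 overlapped (43.7% to 61.7% and 46.0% to 63.4%). Those of Grik2 (42.9% to 60.9% and 60.4% to 76.6%) overlapped narrowly in this draw. In separate draws for batch 1 and batch 2, the Grik2 shares were 78.89% and 73.02%, with intervals above that of all frozen nuclei. The FFPE plates gave 65.62% and 77.46%, and the interval of the former overlapped that of frozen nuclei. So did the interval of FFPE nuclei up to the highest batch 2 total (66.41%). For Gria4 the FFPE plates differed: thinned, the share was 39.1% (27.1% to 52.1%) on 1 plate and 64.8% (52.5% to 75.8%) on the other, with frozen nuclei between them and intervals that did not overlap.

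**Figure D4:**
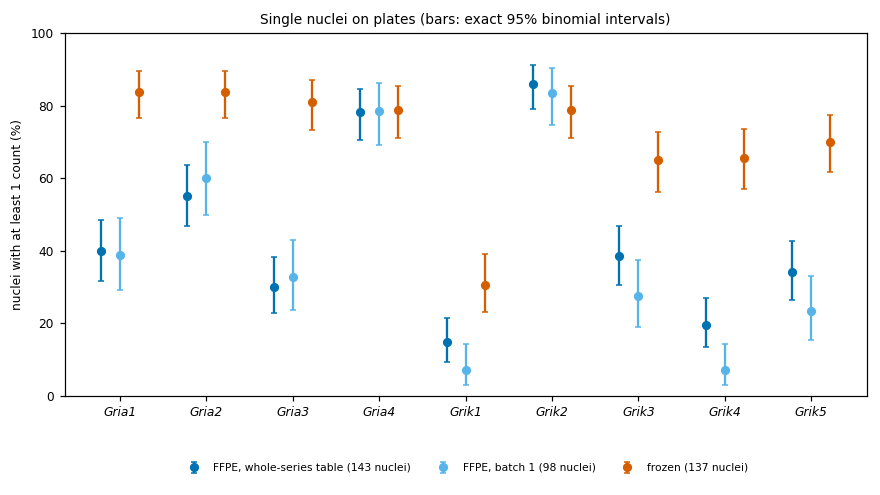
Percent of plate nuclei with at least 1 count of each subunit, without thinning, in FFPE nuclei of the whole-series table (dark blue), FFPE nuclei of batch 1 (light blue) and frozen nuclei (orange), with exact 95% binomial intervals. Gria4 and Grik2 lie at 78% to 86% in all 3 sets, while the other 7 subunits are lower in both FFPE sets.

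The mean over nuclei of Grik2 was 415 CPM in FFPE nuclei of the whole-series table and 1419 in batch 1, against 168 in frozen nuclei. Gria4 averaged 388 and 967 against 306 CPM, but the FFPE plates of the whole-series table lay on either side of frozen nuclei, at 244 CPM on 1 plate (69 nuclei) and 522 on the other (74 nuclei). Gria1 averaged 127 and 357 CPM in FFPE nuclei and 822 in frozen nuclei, Gria3 56.1 and 146 against 392, and Grik4 21.4 and 42.1 against 334. Gria2 was at 191 CPM in the whole-series FFPE nuclei, 613 in batch 1 and 425 in frozen nuclei, so its place relative to frozen nuclei turned with the FFPE batch. Grik5 pooled to 351 CPM in FFPE against 232 in frozen nuclei, but to 114 CPM once nuclei above the highest batch 2 total were left out, and its mean over nuclei was 126 against 205 CPM. By pooled counts 6 of 9 members were higher in frozen nuclei, and by the mean over nuclei 7.

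On the plates the granule neuron markers again differed between FFPE and frozen nuclei, but not every list moved as in the wells. Median sums per nucleus, FFPE against frozen, lay as in the wells for the cortical excitatory list (179 against 1461 CPM) and the oligodendrocyte list (1332 against 669). Those of the inhibitory neuron list (389 against 1347 CPM) and the astrocyte list (541 against 804) lay the other way. Gabra6, which marks cerebellar granule neurons, had a count in 39.2% of FFPE nuclei, 32.7% of batch 1 and 0.730% of frozen nuclei, and Cbln3 in 45.5%, 29.6% and 1.46%. Within batch 1, the 32 nuclei with Gabra6 had Grik2 in 100% (mean 2471 CPM) and the 66 nuclei without it in 75.8% (909 CPM). Gria4 was in 90.6% of the nuclei with Gabra6 (1423 CPM) and in 72.7% without (746 CPM). Gria1 showed the reverse, at 18.8% (84.5 CPM) and 48.5% (489 CPM), as did Gria3 at 25.0% (27.7 CPM) and 36.4% (203 CPM). In the whole-series table, the 56 FFPE nuclei with Gabra6 averaged 605 CPM of Grik2 and 538 of Gria4, against 292 and 292 in the 87 without. Gria1 and Gria3 had lower means with Gabra6 there too (75.7 against 159 and 26.4 against 75.2 CPM). Their shares as deposited turned round, at 48.2% with and 34.5% without Gabra6 for Gria1 and 35.7% and 26.4% for Gria3. At equal depth the shares were 26.4% with and 22.0% without for Gria1 and 13.2% and 15.9% for Gria3, and in each case the intervals overlapped.

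Frozen nuclei also divided by markers of transmitter type. In 17 nuclei with Slc17a7 and neither Gad1 nor Gad2 (glutamatergic markers only), Gria3 averaged 895 CPM and Gria2 896. In 36 nuclei with Gad1 or Gad2 and no Slc17a7, Gria3 averaged 150 CPM and Gria2 423, while Gria1 averaged 1297 CPM against 556 in the Slc17a7 nuclei and Gria4 710 against 107. These means rest on few nuclei: the Gria1 medians ran the other way, at 396 CPM in the nuclei with Gad1 or Gad2 and 455 in those with Slc17a7, and 1 nucleus held 25.2% of the Gria1 counts of the former and 1 held 46.9% of the latter's. The Gria4 medians were 114 and 25.3 CPM, and those of Gria3 74.5 and 225 CPM. Grik1 had a count in 27.8% of the nuclei with Gad1 or Gad2 and in 0 of the 17 with Slc17a7 (exact binomial 95% interval 0 to 19.5%). It was in 60.0% of another 50 frozen nuclei, which had markers of both kinds, and in 5.88% of the 34 with neither. At equal depth these shares were 12.5%, 0%, 16% and 3.45%, in the order given, with overlapping intervals.

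In droplets, 7031 FFPE nuclei held 235 to 998 UMIs each (median 325) and carry 12 classes given by the authors, who made them from these same counts. Levels per class are therefore a description, given as CPM of the summed UMIs with exact Poisson 95% intervals for counting error in 1 sample. Over all nuclei, Grik2 had 4257 UMIs (1634 CPM) and Grik1 127 (48.7 CPM). Microglia, a class of 93 nuclei, held 1536 CPM of Grik2 (45 UMIs, 1120 to 2055) and a UMI in 30.1% of nuclei (median depth 285 UMIs), against 41.2% of all nuclei. In the other classes not named as neurons, Grik2 ran from 858 CPM in Fibroblast to 1515 in OPC. How much of the Grik2 in any class was background RNA was not tested. The granule neuron list also had UMIs in every class, from 1211 CPM in Fibroblast to 4180 in ExNeuron3.

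Markers of both cortex, the labelled tissue, and cerebellum were present in each of the 12 classes. The 7 cortical excitatory markers summed to 1895 to 3500 CPM per class, highest in ExNeuron1, the largest class. The class Astrocyte had the highest sum of Bergmann glia markers, at 1636 CPM against 264 to 908 elsewhere, and also of astrocyte markers (6527 CPM). Slc1a3 is in both lists, so these sums are not independent. ExNeuron3 had the highest granule neuron sum (4180 CPM). The class ExNeuron4 is named excitatory, but its sum of inhibitory neuron markers, 3753 CPM, was the highest of the 12 classes and its sum of cortical excitatory markers, 1895 CPM, the lowest. The authors' names are kept below.

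Gria1 and Gria4 both peaked in the Astrocyte class. Gria1 stood there at 1158 CPM (1024 to 1304), ahead of ExNeuron4 at 651 (564 to 749), with Microglia lowest at 137 CPM (37.2 to 350). It had a UMI in 22.9% of Astrocyte nuclei and in 4.30% of Microglia nuclei, or 19.8% and 4.71% once each nucleus was thinned to 250 UMIs, which left out 183 nuclei in all. Gria4 stood at 2025 CPM (1847 to 2216) in Astrocyte, 1560 (1438 to 1689) in ExNeuron3 and 580 (338 to 929) in Microglia. By the share of nuclei with a UMI, ExNeuron4 came before Astrocyte for Gria4 (43.3% and 38.9%), and after thinning Astrocyte led again (30.8% and 32.1%). Gria2 varied least, from 606 CPM in Fibroblast to 1098 in Astrocyte, and these intervals overlapped. Gria3 was highest in ExNeuron4 (675 CPM) and ExNeuron1 (605), whose intervals overlapped, and stood at 308 CPM in Astrocyte. In Astrocyte, then, Gria3 made up 6.70% of AMPA subunit UMIs against 14.8% over all nuclei, and Gria1 25.2% against 13.9%.

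Among kainate subunits, Grik2 peaked in ExNeuron3 at 2463 CPM (2310 to 2624), ahead of ExNeuron2 at 2022, and had a UMI in 53.2% of ExNeuron3 nuclei (42.8% thinned) against 30.1% of Microglia (25.9% thinned). It was 1051 CPM in Astrocyte (924 to 1191) and 1739 in ExNeuron4. Not adjusted for length, Grik2 supplied 92.9% of kainate subunit UMIs in ExNeuron3 and 75.0% in ExNeuron4, against 93.8% (exact binomial 95% interval 82.8 to 98.7%) of the 48 such UMIs in Microglia. Its share in ExNeuron3 was thus no higher than in Microglia. Grik1 was concentrated in ExNeuron4, which held 78 of its 127 UMIs: 258 CPM (204 to 322) against 21.3 CPM in the other classes pooled, a ratio of 12.1. Its next class, Fibroblast, had 2 UMIs and an interval that overlapped, and Microglia had 0 of 29296 UMIs, which allows up to 102 CPM by the limit of 3 counts and 126 CPM by the exact interval. Grik3 was highest in ExNeuron6 (148 CPM, 12 UMIs), Grik4 in OPC (196 CPM, 15 UMIs) and Grik5 in ExNeuron1 (191 CPM, 158 UMIs), each with an interval overlapping that of the next class. Grik4 had 0 of 81259 UMIs in ExNeuron6, which allows up to 36.9 CPM by that limit and 45.4 by the exact interval. Intervals of the highest and the next class were separate for Gria1, Gria4 and Grik2, and other neighbours in the order overlapped for all 9 members.

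**Figure D5:**
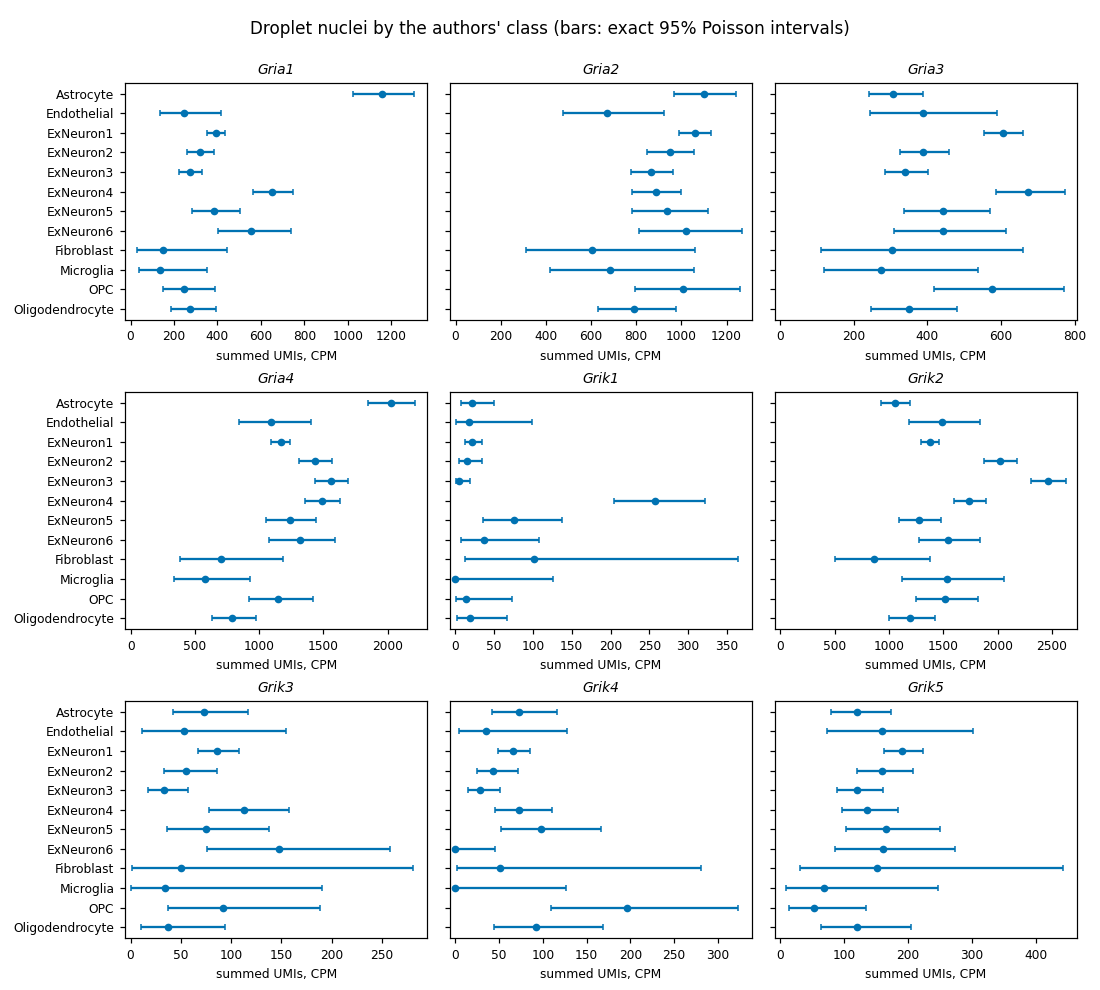
Summed UMIs (CPM, linear axes that differ between panels) of each subunit in each of the authors' 12 droplet classes, with exact 95% Poisson intervals. Gria1 (1158) and Gria4 (2025) are highest in Astrocyte, Grik2 (2463) in ExNeuron3 and Grik1 (258) in ExNeuron4.

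The accessory genes varied over the same classes. AMPA assembly and trafficking genes summed highest in ExNeuron4 (2639 CPM) and extracellular organisers in ExNeuron3 (2733 CPM). The 3 editing enzymes summed to 1690 CPM in ExNeuron4 and 1415 in ExNeuron6, against 303 in Oligodendrocyte, and Adarb2 alone stood at 1402 CPM in ExNeuron4.

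For each member, the genes with the most similar pattern over the 12 classes were found by Pearson's r of log2(CPM + 10) among 2728 genes with at least 200 UMIs. The points share 1 library and differ in depth, so r is a description. Enah (r = 0.92) came first for Gria1, Vdac2 (0.89) for Gria2, Lrrtm4 (0.87) for Gria3 and Cdh2 (0.88) for Gria4. Enah was also the second gene for Gria4 (0.85). Tenm1 (r = 0.93), Dpp6 (0.92) and Galnt13 (0.92) came first for Grik2, each of them highest in ExNeuron3, and Atrnl1 (0.89) for Grik1, highest in ExNeuron4. Shank2 (0.86), Cspp1 (0.88) and Klhdc10 (0.86) led for Grik3, Grik4 and Grik5. UMIs were few for Grik1 (127), Grik3 (192), Grik4 (160) and Grik5 (395).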

How the data were processed

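The authors deposited whole-number counts per gene for each well or plate nucleus (SCRB-seq, SMART-Seq2) and UMI counts for each droplet nucleus, which were used unchanged, with treatments and classes from their annotation. The submitters' processing notes name the builds mm10 and hg19. The sources used here do not name the aligner or counter, nor say whether SCRB-seq UMIs were collapsed or strand was used. Human genes (10653 in the SCRB-seq table) were left out. Differences were tested with edgeR 4.0.16 under R 4.3.3, after filterByExpr and TMM scaling (quasi-likelihood test, Benjamini-Hochberg over all tested mouse genes, adjusted p under 0.05), over the FFPE wells, or over all wells for FFPE minus frozen. DESeq2 1.42.0 gave alternatives. The fits were tested on simulated data.

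Levels are CPM. A nucleus had a gene with at least 1 count. No doublet caller was run, and the sources used here do not say whether doublets were removed. Thinning drew 10000 counts per plate nucleus or 250 UMIs per droplet nucleus. Positions and sequences come from GRCm38 with GENCODE M21, whose gene IDs equal those of the files for all 9 members. The text names the 9 members, the called genes of the 5 accessory lists and the 3 most similar genes per member or fewer. The members, lists and tests were chosen with earlier results of these data known. Alternatives covered scaling, filter, nuclei number, single wells, thinning and measure.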

Additional observations from a re-analysis of the deposited data

Results flagged for a closer look

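In SCRB-seq, 71 groups of 8 wells (1 member in 1 treatment and nuclei number) were checked for a well far from the others, and 13 had one. Chance gives about 1 in 20 for normally distributed values, which groups with mostly 0 counts are not. In mineral oil wells of 10 nuclei, single wells stood apart for Gria1 (399.4 CPM, 3 counts), Grik4 (49.88 CPM, 1 count) and Grik5 (97.12 CPM, 2 counts). In heated xylene wells of 100 nuclei, 1 well was highest for both Gria1 (1421 CPM, next 797.8) and Gria3 (532.7, next 229.5), and another for Grik4 (289.9, next 75.47). At 10 nuclei in heated xylene, wells stood apart for Gria3 (807.8 CPM, next 366.6) and Grik5 (411.8, next 227.2). In room-temperature xylene, wells of 100 nuclei stood apart for Gria1 (292.3 CPM, the lowest, next 525.1) and Gria4 (1399, next 980.2). At 10 nuclei there, 1 well of 32071 counts was highest for both Grik1 (935.4 CPM, next 391) and Grik2 (2588, next 1215). In frozen wells of 100 nuclei, 1 well stood apart for Grik1 (171.5 CPM, next 84.71).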

How the results depend on the processing

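For FFPE minus frozen in SCRB-seq, the number of members called stayed within 1.5 times of 6 under each alternative, and no result reversed. For mineral oil minus heated xylene it went from 3 members to 5 without the filter on low counts, where 3415 of 18205 genes were called. It went to 1 in wells of 10 nuclei alone and to 1 without the mineral oil wells of 10 nuclei, an alternative chosen after seeing the data. For mineral oil minus room-temperature xylene it went from 1 to 2 with DESeq2's Wald test, 4 without the filter (2925 of 18205 genes called), 2 with the number of nuclei as covariate, and 0 in wells of 100 nuclei alone, in wells of 10 nuclei alone and without the mineral oil wells of 10 nuclei. In SMART-Seq2 without the filter, 1 member (Gria3) was called when mineral oil was set against heated xylene (19 of 16292 genes called) and 1 (Gria3) against room-temperature xylene (16 of 16292), where the filtered fits called 0. Leaving out single SMART-Seq2 wells gave 1 to 2 members called for FFPE minus frozen, the value of 1 for each frozen well left out. The causes were not tested. Counts over all genes moved more: without the filter SCRB-seq gave 3415, 2899, 2925 and 4785 genes (mineral oil minus heated xylene, heated minus room-temperature xylene, mineral oil minus room-temperature xylene, FFPE minus frozen), wells of 100 nuclei alone 256, 117 and 178, and the covariate 143, 62 and 201. Without the mineral oil wells of 10 nuclei, the first, second and last were 173, 163 and 1312. FFPE minus frozen had 478 genes in wells of 10 nuclei alone, DESeq2's Wald test gave 36 for heated minus room-temperature xylene, and in SMART-Seq2 FFPE minus frozen 641. Without the frozen well of 100, 50 or 10 nuclei, SMART-Seq2 FFPE minus frozen had 174, 187 and 162 genes against 372. Of 257 refitted fold changes (members in FFPE minus frozen and members called under any setting), 232 kept their side of the threshold, 15 lost a call and 10 gained one. No paired analysis was possible because the labels give the wells no replicate numbers; the number of nuclei, which the groups share, was instead a term of the fit with covariate. The number of counts limits Grik1, Grik3 and Grik4 in wells and droplets.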
